A study of Mus musculus with 6 samples.

Results

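Mymx, Gm20767, Cnpy1 and Spink1 are 4 protein-coding mouse genes whose transcripts were measured here in embryonic stem (ES) cells. They were chosen by the size of their log2 decrease between the 2 groups of the same 6 arrays that are described here, so their levels and fold changes are a description and carry no test. The array measured them with 6 probe sets, 3 of them for Cnpy1, out of 45037 probe sets tested, and they are 4 of the 18193 genes that carry a symbol of their own on at least 1 probe set.

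Mymx encodes a short membrane protein, also called myomerger, minion or Esgp, that works with myomaker to fuse myoblasts into muscle fibres. Cnpy1 belongs to the canopy family of small endoplasmic reticulum proteins, and in zebrafish its counterpart supports FGF receptor signalling at the boundary of midbrain and hindbrain. Spink1, for a long time called Spink3 in the mouse, encodes a secreted inhibitor of trypsin made in large amounts by the acinar cells of the pancreas. Gm20767 has no name beyond its model number and no role is given for it here. It lies among the Tcstv genes, whose relatives are known from the embryo at the 2-cell stage.

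The cells were E14TG2a, an ES cell line of the mouse that is kept undifferentiated by leukaemia inhibitory factor (LIF). RNA was taken from 3 samples of undifferentiated cells, which had LIF at 1000 units/ml and were sorted for lack of 5T4 at the cell surface, and from 3 samples of differentiating cells, which had spent 3 days without LIF and were sorted as 5T4 positive. All 6 samples came from this 1 line, grown on gelatin. Every sample without LIF was sorted as 5T4 positive and every sample with LIF as 5T4 negative, so loss of LIF and the 5T4 sort cannot be told apart. The replicates are numbered 1 to 3 in each group, and nothing states that they were separate cultures, so p-values measure only the spread between these samples, which may be technical. Values are RMA values on the log2 scale, where 1 unit is a doubling of signal. Array medians lay between 5.54 and 5.65, and the median log2 difference of all probe sets between differentiating and undifferentiated cells was 0.03. The labels were checked against ES cell markers. Of 10 listed genes, a list that also holds the 5T4 gene, 3 passed the limma test as lower, against 1.03% of all probe sets. They were Klf4 (log2 fold change -4.20, adjusted p = 0.0669), Sox2 (-0.96, adjusted p = 0.0897) and Pou5f1 (-0.68, adjusted p = 0.0860). Sox2 and Pou5f1 stayed at 11.01 or higher in every sample. Zfp42 (-2.64, adjusted p = 0.106) and Esrrb (-3.55, adjusted p = 0.1235) did not pass at their brightest probe sets, though another Esrrb probe set passed as lower. The other listed markers changed less and did not pass. They were Dppa5a (-0.72, adjusted p = 0.234), Nanog (-0.50, adjusted p = 0.345), Utf1 (-0.15, adjusted p = 0.734) and Fut4 (0.20, adjusted p = 0.839). None of Klf4, Sox2 and Pou5f1 passed when either differentiating replicate 2, differentiating replicate 3 or replicate 3 of the undifferentiated cells was left out (adjusted p from 0.238 to 0.366). The call of Pou5f1 was also lost when differentiating replicate 1 (0.110) or undifferentiated replicate 1 (0.114) was dropped, and that of Sox2 when undifferentiated replicate 1 was dropped (0.120) or the arrays were quantile normalized again (0.107). Tpbg, which encodes 5T4, was 1.27 log2 units higher in differentiating cells without passing (adjusted p = 0.221). In bulk samples such as these, fewer cells that carry a transcript and less of it per cell cannot be told apart.

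The fall in Mymx was the largest of all probe sets. In undifferentiated replicates 1, 2 and 3 its RMA values were 11.98, 10.58 and 11.30, and in differentiating replicates 1, 2 and 3 they were 8.72, 6.94 and 5.45. Every differentiating array was below every undifferentiated one, but the differentiating arrays were far apart, with replicate 1 still bright and replicate 3 near its array's median. The group means were 7.04 ± 1.63 and 11.28 ± 0.70 (SD, n = 3 each), a log2 fold change of -4.25 (SE 0.79) or 19.0-fold less signal. The spread of Mymx among differentiating samples was the 10th largest SD of all 45037 probe sets. Klf4 (a pluripotency factor and target of LIF signalling) had the same order among the differentiating arrays, at 8.17, 6.24 and 5.50. Leaving out differentiating replicate 1 moved the log2 fold change of Mymx to -5.09, and leaving out differentiating replicate 3 moved it to -3.46.

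**Figure D1:**
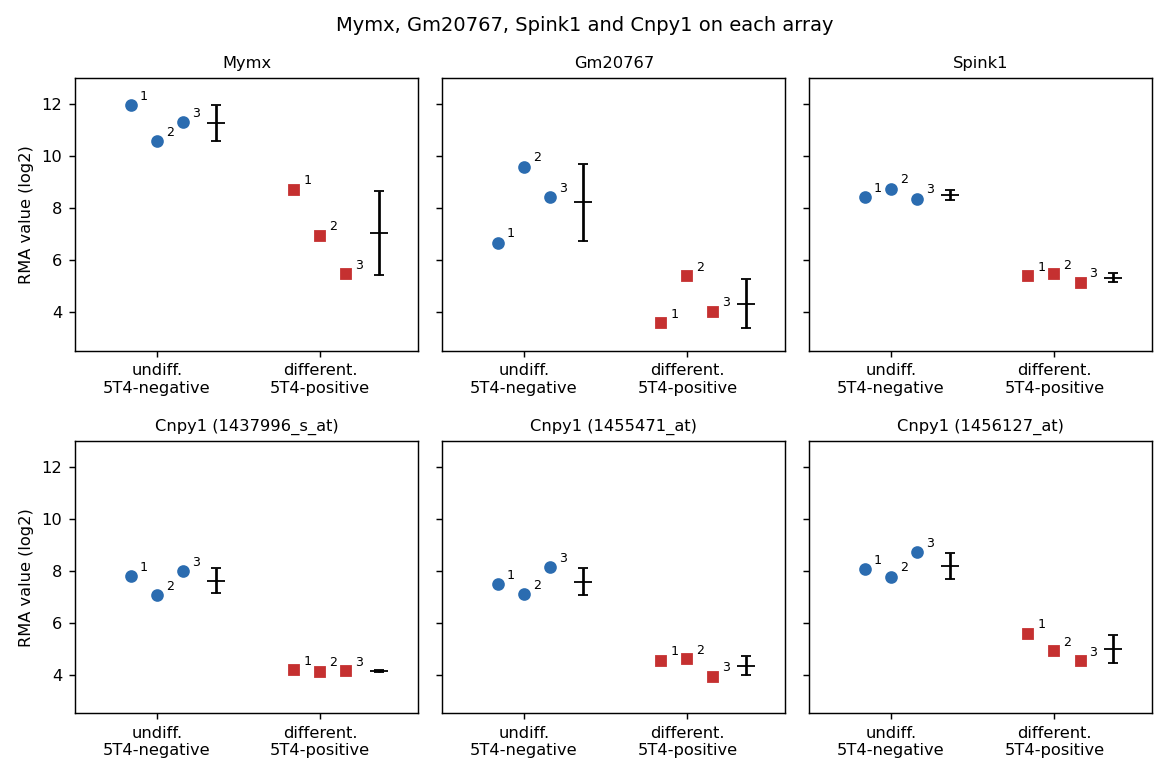
RMA value (log2) of each of the 6 probe sets in each array, with undifferentiated and differentiating samples side by side. Points are single arrays with their replicate number, and bars are group means with their SD (n = 3). No probe set has overlapping groups, Mymx is widest among differentiating arrays (5.45 to 8.72), Gm20767 is widest among undifferentiated arrays (6.66 to 9.60), and Spink1 is tight in both.

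Gm20767 was lost from a level that itself differed between the undifferentiated samples. Its RMA values were 6.66, 9.60 and 8.42 in undifferentiated replicates 1, 2 and 3 and 3.56, 5.38 and 4.01 in differentiating replicates 1, 2 and 3. Again no differentiating array reached an undifferentiated one, and replicate 2 was the brightest array of both groups. The means were 4.32 ± 0.95 and 8.23 ± 1.48 (SD, n = 3 each), a log2 fold change of -3.91 (SE 0.78) or 15.1-fold less signal. Differentiating replicates 1 and 3 lay below 4.09, the median lower quartile of the arrays. The table holds no detection calls, so values this dim cannot be told from background and the fold may be understated. The SD of Gm20767 ranked 154 of 45037 among undifferentiated samples. Acta1 (skeletal muscle actin) and Col1a2 (a collagen chain of connective tissue), picked after their values were seen, had the same order among undifferentiated replicates 1, 2 and 3. They read 5.24, 10.80 and 7.53 for Acta1 and 5.55, 8.44 and 6.51 for Col1a2. Other genes of their lists did not share it. Thy1 of the fibroblast list (7.24, 5.21 and 5.45) and Myh3 of the muscle list (6.23, 5.31 and 5.82) had the reverse order. Any part of such cells in the spread of Gm20767 was not tested. Without undifferentiated replicate 1 the log2 fold change of Gm20767 was -4.69, and without undifferentiated replicate 2 it was -3.22.

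Cnpy1 fell to much the same extent at all 3 of its probe sets. The probe set that fell most read 7.80, 7.07 and 7.99 in undifferentiated replicates 1, 2 and 3 and 4.16, 4.11 and 4.12 in differentiating replicates 1, 2 and 3. The undifferentiated arrays stood well apart from the differentiating arrays, which were almost identical. The probe set that fell second most read 7.49, 7.11 and 8.14 in undifferentiated and 4.53, 4.60 and 3.92 in differentiating cells, and the third, the brightest, read 8.06, 7.76 and 8.72 against 5.57, 4.90 and 4.50. In undifferentiated cells all 3 probe sets had the order replicate 3, then 1, then 2. In the same order their log2 fold changes were -3.49 (SE 0.23), -3.23 (SE 0.30) and -3.19 (SE 0.33), or 11.2-fold, 9.38-fold and 9.12-fold less signal. The lowest differentiating values lay near the same lower quartile, so the limit given for Gm20767 holds for Cnpy1 too.

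Spink1 was the steadiest of the 4 genes. Its RMA values were 8.41, 8.74 and 8.36 in undifferentiated replicates 1, 2 and 3 and 5.37, 5.46 and 5.12 in differentiating replicates 1, 2 and 3. The groups were separated by 2.90 log2 units, while neither group spanned more than 0.38. The means were 5.32 ± 0.18 and 8.51 ± 0.21 (SD, n = 3 each), a log2 fold change of -3.19 (SE 0.16) or 9.13-fold less signal. Leaving out any 1 array kept this value between -3.26 and -3.07.

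Among genes, ranked by the size of the fall at the probe set that fell most, Mymx was 1, Gm20767 3, Cnpy1 13 and Spink1 20, and 23 genes fell by at least 3 log2 units. All 6 probe sets met the thresholds of the methods for a lower call (an adjusted p below 0.1 with a log2 fold change at or below -1), which 0.613% of all probe sets met, and all 6 had every differentiating array below every undifferentiated one, which held for 10.3% of all probe sets. Nothing is read from either count, because these values chose the genes. The thresholds were met by 4 of the 6 probe sets after a second quantile normalization and by 5 after median centring. With 1 array left out they were met by 5 without replicate 1 of either group, by 0 without differentiating replicate 2, by 1 without differentiating replicate 3, by 6 without undifferentiated replicate 2 and by 1 without undifferentiated replicate 3. The 4 genes differed in how their replicates were ordered. Among undifferentiated samples the brightest was replicate 1 for Mymx, replicate 2 for Gm20767 and Spink1, and replicate 3 for Cnpy1. The Pearson correlation of pairs of the 4 genes over the 6 arrays lay between 0.71 (Mymx and Gm20767) and 0.97 (Cnpy1 and Spink1), which mostly reflects the shared group difference, and after the group means were taken out it lay between -0.47 (Mymx and Gm20767) and 0.65 (Gm20767 and Spink1).

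**Figure D2:**
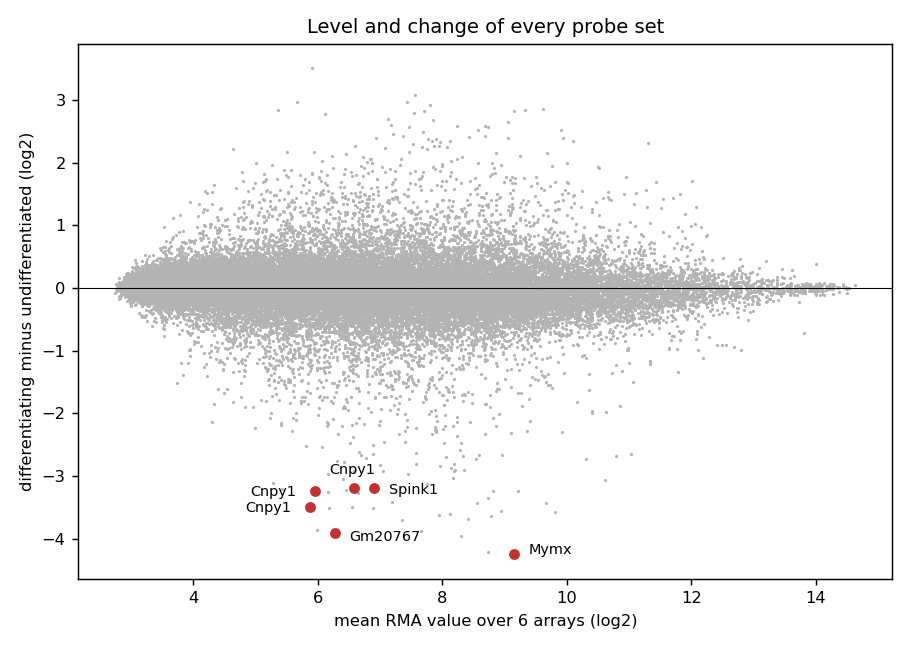
Each grey dot is 1 of 45037 probe sets, with its mean RMA value over the 6 arrays (log2) on the x axis and the differentiating minus undifferentiated difference (log2) on the y axis. The 6 red dots are the probe sets of Mymx, Gm20767, Cnpy1 and Spink1, all between -4.25 and -3.19.

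No other gene of myoblast fusion or of muscle passed at its brightest probe set. Of 30 further measured genes of myoblast fusion 0 passed at their brightest probe sets, and their median log2 fold change was -0.04. With 1.03% of all probe sets passing as lower and 0.573% as higher, little is read from 0 here or among the muscle genes below. Mymk, the myomaker partner of Mymx, was dim in both groups (3.90 in undifferentiated and 3.72 in differentiating cells, log2 fold change -0.18, adjusted p = 0.604). Jam2, an adhesion molecule of tight junctions that also serves myoblasts in zebrafish, read 10.26, 9.81 and 10.72 in undifferentiated and 8.43, 6.40 and 4.90 in differentiating replicates 1, 2 and 3, a log2 difference of -3.69 that did not pass (SE 0.81, adjusted p = 0.119), though another Jam2 probe set passed as lower. These differentiating values were in the same order as those of Mymx. For Nphs1 (nephrin) the log2 difference was -1.46 (adjusted p = 0.217). Of 17 measured myogenic factors and muscle markers 0 passed, with a median of 0.07, and the mean RMA value of the list lay between 5.21 and 5.52 in undifferentiated and between 5.44 and 5.64 in differentiating arrays. The largest changes in that list were Acta1 (2.40, SE 1.26, adjusted p = 0.475) and Myh3, an embryonic myosin (-0.66, adjusted p = 0.346).

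Of 3 other measured genes of the canopy family 0 passed. Little is read from 0 among so few, as 1.03% of all probe sets passed as lower and 0.573% as higher. The log2 fold changes were 0.16 for Cnpy2 (adjusted p = 0.717), -0.25 for Cnpy3 (adjusted p = 0.630) and -0.05 for Cnpy4 (adjusted p = 0.932). In the FGF pathway 2 of 19 measured genes passed as lower and 2 as higher, with a median of -0.04, against 1.03% and 0.573% of all probe sets. Those that passed as lower were Spry4, a feedback inhibitor of the pathway (-1.54, adjusted p = 0.0770), and Etv4, a transcription factor induced by FGF (-1.45, adjusted p = 0.0860). Those that passed as higher were Fgf5, a ligand of the primed epiblast (1.92, adjusted p = 0.0734), and Il17rd, a membrane antagonist of the pathway (1.09, adjusted p = 0.0773). The ligands Fgf4 (-1.41, adjusted p = 0.117) and Fgf8 (1.73, adjusted p = 0.122) had groups without overlap but did not pass at their brightest probe sets. Another Fgf4 probe set passed as lower. Of 9 genes of the isthmic organiser, the signalling centre between midbrain and hindbrain, 1 passed, as lower. This was En2, a homeobox gene of that region, which read 6.02, 6.32 and 6.48 in undifferentiated and 4.82, 4.64 and 4.85 in differentiating replicates 1, 2 and 3. Its groups did not overlap, and its log2 fold change was -1.50 (SE 0.15, adjusted p = 0.0377). The list's median was -0.01. With the same 3 arrays left out in turn (replicates 2 and 3 of differentiating and replicate 3 of undifferentiated cells) the adjusted p of En2 was 0.245, 0.186 and 0.166, and Spry4, Etv4, Fgf5 and Il17rd did not pass either. The call of Etv4 was also lost when undifferentiated replicate 1 was dropped (adjusted p = 0.114) or after a second quantile normalization (0.117). Gbx2, a homeobox gene of the isthmus that ES cells also express, read 7.01, 9.09 and 9.43 in undifferentiated and 6.16, 5.03 and 5.59 in differentiating replicates 1, 2 and 3. Its groups did not overlap, undifferentiated replicate 1 was the lowest of its group, and the log2 difference of -2.92 did not pass (SE 0.64, adjusted p = 0.118) except in 4 alternatives, 1 of them the fit without undifferentiated replicate 1 (-3.67, adjusted p = 0.0259).

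No relative of Spink1 passed, and since 1.03% of all probe sets passed as lower and 0.573% as higher, little is read from 0 in lists this short. Of 6 other measured Spink genes 0 passed, and their log2 fold changes ran from -0.26 (Spink10) over -0.09 (Spink2), -0.06 (Spink5), 0.08 (Spink8) and 0.14 (Spink4) to 0.20 (Spink12), with a median of 0.01. Of 11 measured trypsin-type proteases and partners of Spink1 0 passed, with a median of 0.13. The largest changes there were Cela1, an elastase (-0.71, adjusted p = 0.361), and Egfr, the EGF receptor (0.68, adjusted p = 0.135). Of 9 measured markers of pancreatic acinar cells 0 passed. The mean RMA value of this list lay between 4.99 and 5.38 in undifferentiated arrays and between 4.91 and 5.31 in differentiating arrays. Some markers of other cells that such cultures could hold were brighter in differentiating cells without passing. Of 12 measured visceral endoderm markers 3 had a difference below 0 and 0 passed at their brightest probe sets (median 0.10), with Dab2 at 1.96 (adjusted p = 0.142, groups not overlapping, 2 other probe sets passing as higher) and Cubn at 1.89 (adjusted p = 0.305). The mean RMA value of that list lay between 5.24 and 5.41 in undifferentiated and between 5.47 and 5.85 in differentiating arrays. Of 10 fibroblast markers 2 had a difference below 0 and 0 passed (median 0.32), with Col1a2 at 1.38 (adjusted p = 0.516), and the list's mean lay between 5.30 and 5.74 in undifferentiated and between 5.59 and 6.17 in differentiating arrays. Their part in the fall of the 4 genes was not tested.

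**Figure D3:**
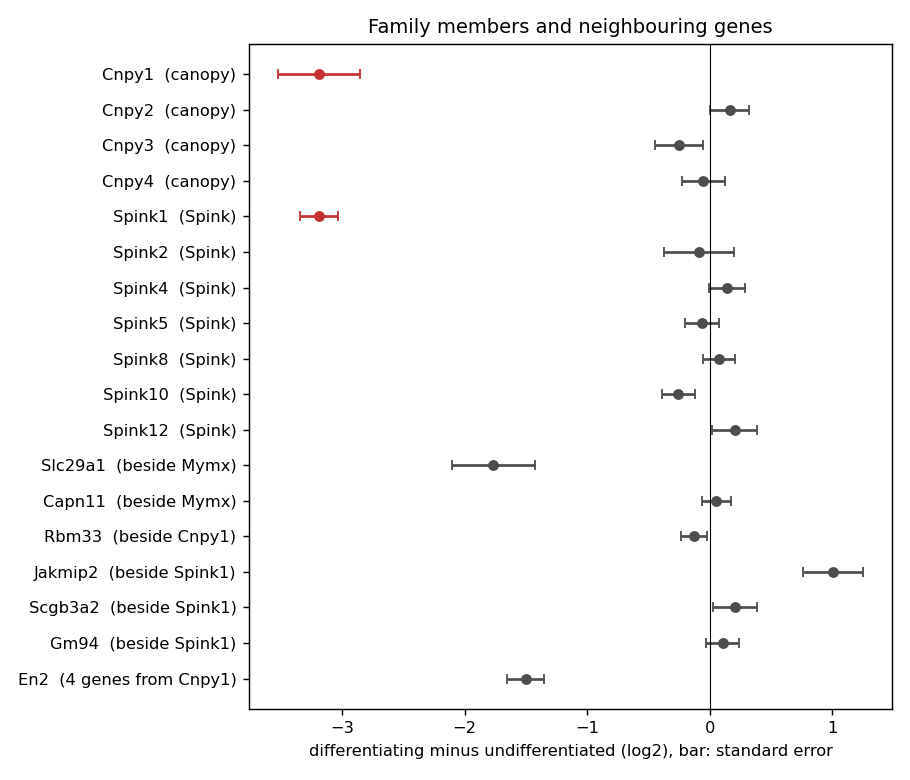
Differentiating minus undifferentiated log2 difference of Cnpy1 and Spink1 (red), of the measured relatives in their families and of the measured neighbours of Mymx, Cnpy1 and Spink1 (grey), with 1 dot per gene at its brightest probe set, bars of 1 standard error and a vertical line at 0. Cnpy1 and Spink1 lie at -3.19, while the canopy relatives lie between -0.25 and 0.16 and the Spink relatives between -0.26 and 0.20.

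The genes next to each of the 4 on the chromosome were looked up in the RefSeq gene order, 3 on each side, and 6 of them were measured. Slc29a1, a nucleoside transporter gene directly beside Mymx, read 10.40, 9.81 and 10.61 in undifferentiated and 9.13, 8.50 and 7.89 in differentiating replicates 1, 2 and 3. The groups did not overlap and the differentiating order was that of Mymx, with a log2 fold change of -1.77 (SE 0.34, adjusted p = 0.0950). It did not pass after a second quantile normalization (adjusted p = 0.119) or when replicate 2 or 3 of differentiating or replicate 1 or 3 of undifferentiated cells was left out, where the adjusted p lay between 0.130 and 0.368. For Capn11, on the other side of Mymx, the log2 difference was 0.05 (adjusted p = 0.893). Rbm33 beside Cnpy1 (-0.13, adjusted p = 0.647) and Jakmip2 (1.01, adjusted p = 0.150), Scgb3a2 (0.21) and Gm94 (0.11) near Spink1 did not pass at their brightest probe sets. With 20 genes on each side, a width chosen after the values were seen, 55 genes were measured and 3 passed as lower, against 1.03% of all probe sets, namely Slc29a1, Cdc5l (a splicing factor gene near Mymx, -0.97, adjusted p = 0.0538) and En2, which stands 4 genes from Cnpy1. A second, dimmer Cdc5l probe set fell by much the same but did not pass (-0.99, adjusted p = 0.1008). At its brightest probe set Cdc5l, like En2, did not pass without replicate 2 or 3 of differentiating or replicate 3 of undifferentiated cells (adjusted p from 0.209 to 0.294).

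The neighbourhood of Gm20767 on chromosome 13 holds a cluster of related genes. None of the 3 genes on each side was measured, and 7 of the wider set were. AF067061 had the pattern most like Gm20767, at 9.06, 11.65 and 10.58 in undifferentiated and 7.06, 8.03 and 6.48 in differentiating replicates 1, 2 and 3. Replicate 2 was again the brightest in both groups and the groups did not overlap, but the log2 difference of -3.24 did not pass (SE 0.67, adjusted p = 0.109). Its probe set is of the x type, whose probes can bind other transcripts, so the share of each related gene in either signal is uncertain. The other 6 had log2 fold changes from -0.88 (D13Ertd608e, adjusted p = 0.178) and -0.77 (Tcstv3, adjusted p = 0.430) through -0.48 (Tcstv1), -0.21 (AF067063) and -0.15 (BC147527) to 0.18 (Gm46390), and none passed. Of 12 listed genes known from 2-cell-like cells, a rare state within ES cell cultures, 6 were measured and 0 passed, with a median of -0.52. Eif1a, 1 of the 6, was bright in every array (10.30 to 11.07), so its signal does not mark a rare state. The Zscan4 and Tdpoz genes of that list had no probe set of their own. Since 1.03% of all probe sets passed as lower and 0.573% as higher, little is read from 0 here or among the cluster genes. Usp17la, a deubiquitinase gene on another chromosome, had the largest change among the 6 measured 2-cell-like genes. It read 6.34, 8.77 and 7.96 in undifferentiated and 4.94, 5.36 and 4.52 in differentiating replicates 1, 2 and 3 (log2 fold change -2.75, SE 0.58, adjusted p = 0.112). It too was brightest in replicate 2 of each group.

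**Figure D4:**
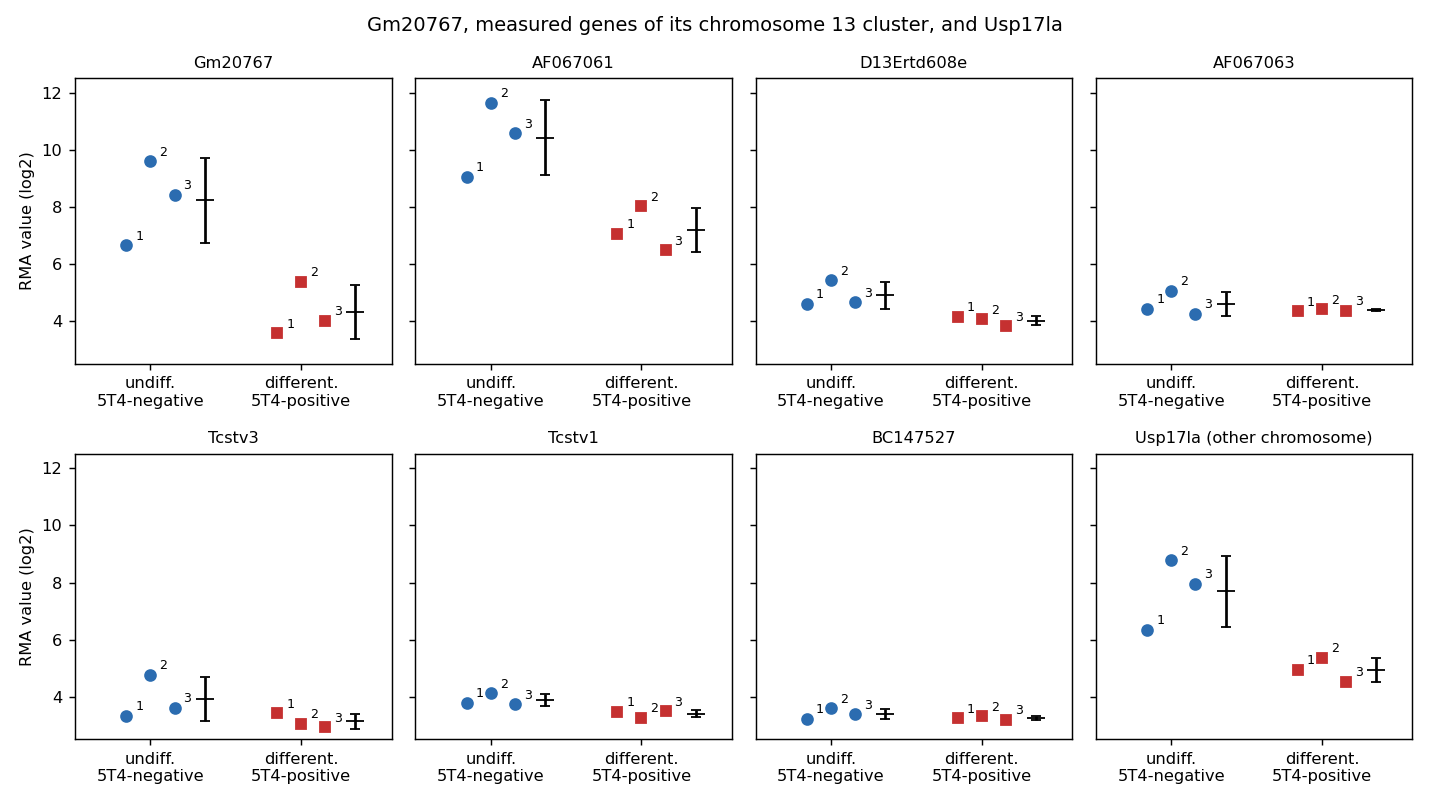
RMA value (log2) in each array of Gm20767, of measured genes of its chromosome 13 cluster and of Usp17la, with replicate numbers beside the points and group means with their SD (n = 3). Gm20767, AF067061 and Usp17la are highest in undifferentiated replicate 2 (9.60, 11.65 and 8.77), and their groups do not overlap.

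To describe which genes resembled each of the 4, the Pearson correlation over the 6 arrays was taken with each of 2082 genes whose SD was at least 0.5. With 2 groups of 3 arrays this measure mostly reflects the group difference, and the arrays are shared by all genes, so no p is given. For Mymx the 5 highest were Hormad1, a meiotic chromosome axis gene (r = 0.999), Dhx16 (0.997), Ooep, an oocyte-expressed gene (0.997), Manba (0.995) and Cdyl2 (0.995), and 132 genes had the same rank order as Mymx. For Gm20767 they were AF067061 (0.988), Usp17la (0.982), AA414768 (0.974), Bmp4, a signalling ligand (0.965), and B230307C23Rik (0.962). For Cnpy1, at the probe set of widest range, they were Znrd1 (0.999), Znrf2 (0.999), 2610318N02Rik (0.995), Ccnb1ip1 (0.995) and Btbd11 (0.994). For Spink1 they were Epop (0.992), 1700007K13Rik (0.990), Calhm6 (0.988), Gna14 (0.986) and Syce1, a synaptonemal complex gene (0.984). The leading correlates were picked as the highest of 2082 genes on these same arrays. After removal of the group means their r was 0.995 for Mymx (Hormad1), 0.948 for Gm20767 (AF067061), 0.973 for Cnpy1 (Znrd1) and 0.204 for Spink1 (Epop). By this measure they ranked 3, 6, 2 and 727. For Gm20767 the highest was then Thsd7a (0.996), which was brighter in differentiating cells (log2 fold change 1.39).

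**Figure D5:**
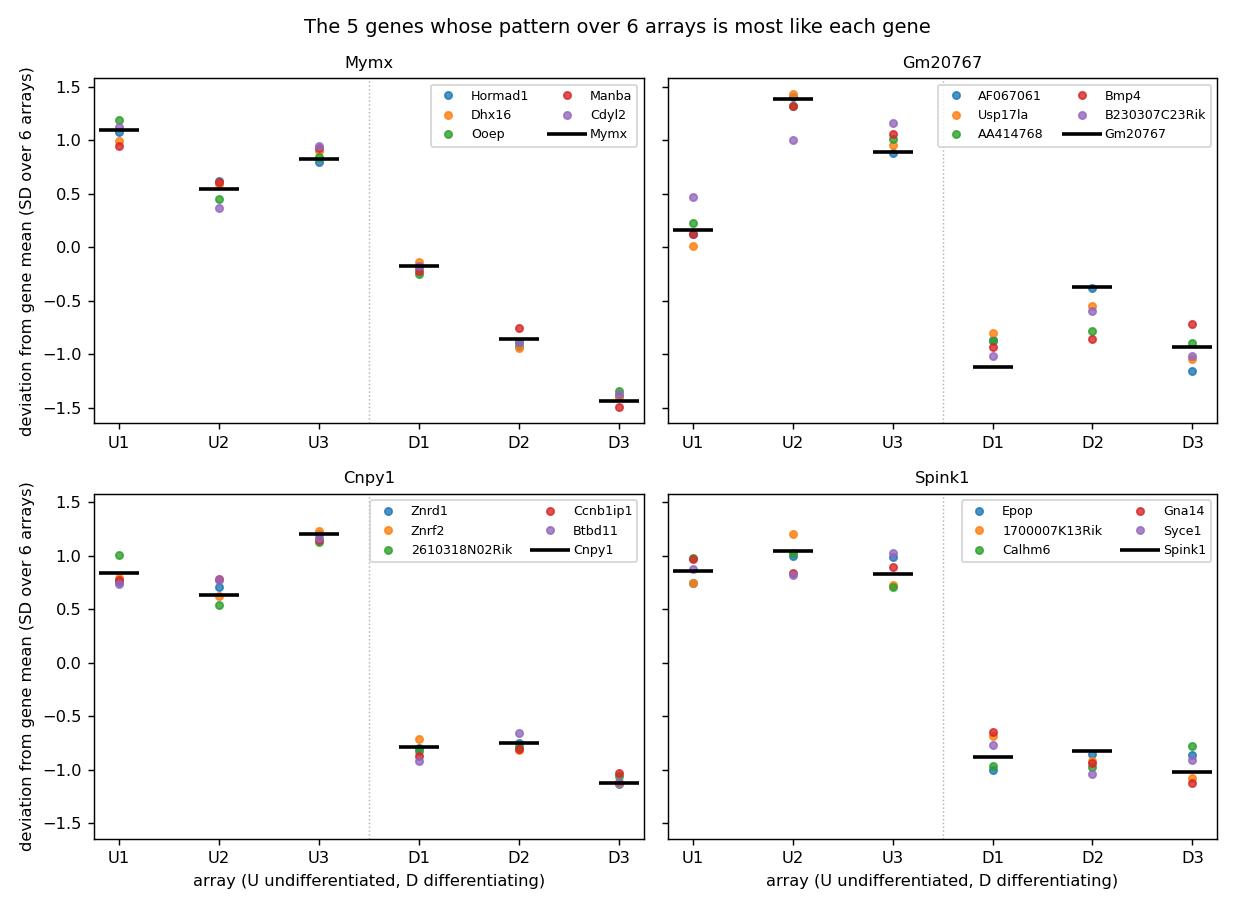
Deviation from the gene's own mean, in SD over the 6 arrays, for each of the 4 genes (black bars) and the 5 genes of highest Pearson correlation with it (coloured dots). Undifferentiated (U) arrays are left of the dotted line and differentiating (D) arrays right of it, and the numbers are replicate numbers.

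Of the 4 genes only Cnpy1 has its start sites shown here, with sequence from RefSeq on GRCm38.p6. Each window of 300 bases, most of it before the start, runs 5′ to 3′ on the minus strand, and capitals mark CACCC, the core of Krueppel-like factor motifs. The array cannot say which start was used.
Cnpy1 start at chr5:28245739-28246038: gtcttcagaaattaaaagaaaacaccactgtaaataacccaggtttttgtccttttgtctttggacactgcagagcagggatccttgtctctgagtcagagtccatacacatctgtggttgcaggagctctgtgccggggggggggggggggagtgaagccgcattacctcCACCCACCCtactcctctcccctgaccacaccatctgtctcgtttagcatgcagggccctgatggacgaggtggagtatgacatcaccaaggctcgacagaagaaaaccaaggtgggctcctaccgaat
Cnpy1 start at chr5:28210119-28210418: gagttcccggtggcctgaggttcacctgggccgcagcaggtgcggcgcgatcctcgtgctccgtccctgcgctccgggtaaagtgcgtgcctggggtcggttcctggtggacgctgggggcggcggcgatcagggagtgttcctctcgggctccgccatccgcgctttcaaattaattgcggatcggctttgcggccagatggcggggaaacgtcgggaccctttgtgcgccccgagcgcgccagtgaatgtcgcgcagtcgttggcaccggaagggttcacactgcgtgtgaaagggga
The first holds CACCC at bases 172 to 176 and 176 to 180, which share 1 base, and has a GC content of 53.0% with 6 CpG. The second holds none of the motifs searched and is richer in GC (66.3%) and CpG (34), against medians of 52.7% and 7 over 32851 promoters of the same length. The motifs were searched on both strands, and the shares of all promoters that hold each were 57.5% for CACCC, 8.30% for TTCNNNGAA (STAT), 1.74% for ATGCAAAT (octamer), 0.423% for TCAAGGTCA (ESRRB) and 16.3% for CAGCTG (myogenic E-box). A match is a description of the letters and not a site.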

How the data were processed

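RNA from 3 undifferentiated and 3 differentiating samples of E14TG2a cells was hybridised to Affymetrix mouse arrays. The deposited values are log2 values that the authors made with RMA (background correction, quantile normalization over the arrays, 1 summary per probe set; version not stated), and they were used as they are. The number of arrays limits the precision.

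The table has 45101 probe sets, of which 64 are controls of the array. The remaining 45037 were fitted with lmFit and eBayes of limma 3.58.1 (R 4.3.3, prior df 2.93), and p-values were adjusted by Benjamini-Hochberg over this whole set. A gene passed at an adjusted p under 0.1. In the lists a gene has the value of its brightest probe set. The platform annotation gave 34945 probe sets 1 symbol, 932 several and 9160 none, and the RefSeq gene table (GRCm38.p6) changed 0 symbols.

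The 4 genes and all gene lists were chosen with earlier results of these data known. Named besides the 4 are, per list, up to 4 genes of smallest adjusted p among those that passed or, with none, up to 2 that changed most, the measured canopy, Spink and neighbouring genes, and the 5 genes most like each. Mymk, Klf4, Sox2, Pou5f1 and Tpbg were named as partner or label checks. Acta1, Col1a2, Thy1, Cdc5l, Esrrb, Zfp42, Nanog, Dppa5a, Utf1, Fut4, Fgf4, Fgf8, Eif1a, Thsd7a and the cluster genes were named after their values were seen. Alternatives were a replicate block, array weights, a trended robust variance, median centring, quantile normalization once more, removal of dim probe sets, inclusion of the controls, removal of each array in turn, and other thresholds.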

Additional observations from a re-analysis of the deposited data

How the results depend on the processing

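All 78 log2 fold changes of the 6 probe sets under 13 alternatives stayed below 0 and within 1 SD (within groups) of the value given. The replicate block, the trended robust variance, removal of dim probe sets and inclusion of the controls leave a fold change as it is. Their agreement was fixed in advance, and the genes were chosen for this fall, so little is read from the count. With 1 array left out the log2 fold changes ran from -5.09 to -3.46 for Mymx, -4.69 to -3.22 for Gm20767, -3.76 to -3.30, -3.47 to -2.95 and -3.48 to -2.92 for the 3 Cnpy1 probe sets, and -3.26 to -3.07 for Spink1. Over all probe sets 276 were called lower and 148 higher. These counts were 742 and 694 with array weights, 77 and 23 at an adjusted p under 0.05, 462 and 258 with no fold threshold, 1 and 0 with limma's treat, and 314 and 106 with median centring. With 1 array left out limma called 0 to 494 lower and 0 to 563 higher. Both were 0 without differentiating replicate 2 (4129 at an unadjusted p under 0.05), 3 and 0 without differentiating replicate 3, and 1 and 0 without undifferentiated replicate 3, and En2, Slc29a1 and the listed genes did not pass in these 3 fits, nor did at least 5 of the 6 probe sets of the 4 genes. Of the listed genes 6 passed as lower (11 with a trended robust variance, 26 with array weights, 12 of 78 with dim probe sets left out, 0 to 9 with 1 array left out) and 2 as higher (13 with array weights, 0 to 8 with 1 array left out). Of the neighbours 1 passed as lower (0 after a second quantile normalization, 3 with 20 genes on each side, 0 to 1 with 1 array left out) and 0 as higher (1 with array weights, 0 to 1 with 1 array left out). Deviations from the group means of same-numbered arrays had correlations of 0.21, -0.11 and 0.12. The highest correlation, 0.32, was between differentiating replicate 3 and undifferentiated replicate 2. Same-numbered arrays were not treated as pairs, since 1 of the 3 correlations lies below 0.1 and nothing states that a number marks a shared culture or day. With the replicate number as a block 312 probe sets were lower and 202 higher, 1 listed gene passed as higher, and 0 neighbours passed as lower. Spry4 (adjusted p = 0.118), Fgf5 (0.101), Pou5f1 (0.136) and Slc29a1 (0.115) did not pass with the block, while AF067061 (0.0712) and Usp17la (0.0960) did, and the SE of Gm20767 was 0.28. With a trended robust variance Jam2 (adjusted p = 0.0968), AF067061 (0.0889), Usp17la (0.0932) and Gbx2 (0.0979) passed as lower. The likeness of Spink1 and Epop was 0.886 as Spearman's rho. The causes were not tested.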
